A study of Leymus chinensis with 14 samples.

Results

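The light by high salt interaction in sheepgrass (Leymus chinensis, a perennial forage grass) asks, for each gene, whether high salt altered its transcript level in leaves by a different amount at low light than at normal light. It was taken as the change with high salt at low light minus the change with high salt at normal light, on a log2(abundance + 1) scale, so a positive value means that salt raised the transcript more, or lowered it less, at low light. It uses 11 of the 14 leaf libraries: 2 labelled low light and high salt, 3 labelled low light and ck, 3 labelled normal light and high salt, and 3 labelled normal light and ck. The ck libraries carry a 0 in the salt position of their names and are taken here as the check without added salt. All plants were 3 weeks old and were grown on half-strength MS medium, and neither the salt concentrations nor the light levels are given in the labels. The labels do not say whether replicates were separate plants, and the p-values then reflect only how far these libraries spread, which may be technical. The 3 libraries outside the comparison had low salt at normal light. The deposited transcripts were summed to 29560 loci, written here with the g number of the table. After leaving out 967 loci whose best database hit is fungal and those below a value of 1 in all but 2 or fewer of the 11 libraries, 17665 loci were tested.

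High salt acts on a leaf as an osmotic shortage of water and as an ionic load, and plants answer it through abscisic acid, compatible solutes, dehydrins, ion transport and scavenging of reactive oxygen. Light sets the supply of photosynthetic electrons and sugars, and the genes of photosynthesis are themselves under light control. An interaction term separates genes whose answer to one condition depends on the other from genes on which the 2 conditions simply add. Redox homeostasis is a stated subject of the series.

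The deposited abundances are of a kind with TPM or FPKM, the unit is not named, and no read counts or depths can be had from them. Their sum ranged from 470162 to 581690 units per library. The 100 most abundant loci held 23.5% to 29.6% of it at low light with high salt, 23.5% to 26.6% at low light ck, 26% to 32.2% at normal light with high salt and 40.1% to 47.1% at normal light ck. The 107 leaf marker loci (Rubisco, photosystem and light-harvesting genes) held 10.1% to 15.9% of the abundance at low light with high salt, 11% to 12.5% at low light ck, 11.4% to 16.2% at normal light with high salt and 16.2% to 20.2% at normal light ck, and the 37 loci that mark dividing cells held at most 0.153% in any library. Both sets moved with the groups, and their part in the results was not tested. In leaf tissue, fewer cells of a type and less RNA per cell cannot be told apart.

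Few single loci passed the test of the interaction. Of 17665 loci, 5 had a more positive salt change at low light (0.0283% of those tested) and 0 a more negative one (0%), by limma with an adjusted p under 0.05. At an unadjusted p under 0.05 there were 871 more positive loci (4.93%) and 1836 more negative loci (10.4%), and with median-of-ratios scaling of the libraries these counts were 1426 and 920 of 17436 loci (8.18% and 5.28%). The median interaction over all loci was -0.27, and it was 0.00 with that scaling, so values of gene groups are given below relative to the median of all loci. The interaction was below 0 in 11244 loci (63.7%). The median absolute salt change was 0.30 at low light and 0.49 at normal light. High salt at low light had 18 loci that rose (0.102%) and 3 that fell (0.017%), and high salt at normal light 730 (4.13%) and 223 (1.26%). Low light against normal light had 6 that rose (0.034%) and 3 that fell (0.017%) with high salt, and 2433 (13.8%) and 901 (5.1%) at ck. The comparisons share libraries, and counts past a threshold in one and not in another are no test of the difference.

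One described locus passed. Cysteine-rich receptor-like protein kinase 10 (CRK10, g27266), of a family of plasma membrane kinases with a cysteine-rich outer domain, was listed at 0 in both libraries of low light with high salt and at 0.02, 0 and 0 units at low light ck. It was listed at 0 in all 3 libraries of normal light with high salt and at 21.4, 13.5 and 16.5 units at normal light ck. Only the normal light ck libraries therefore held it above 0.1 units, and both low-light groups lay at the bottom of the scale with or without salt. Its interaction was 4.15 ± 0.35 (SE, limma adjusted p = 0.00092), with a salt difference of -0.01 ± 0.26 at low light and -4.16 ± 0.23 at normal light. It reached a value of 1 only in those 3 libraries, so it entered the test through the group where it is high. A locus that reached 1 only in the 2 libraries of the combined treatment could not enter. The differences of CRK10 are on the log2(abundance + 1) scale, and against groups listed at 0 their size depends on the added 1. With low light ck at 0 to 0.02 units, a fall with salt could hardly be seen at low light.

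The other 4 loci that passed have no described protein, and they are named because they passed, after their values were seen. Locus g86302 had 44.3 and 47.5 units at low light with high salt, 0, 0 and 0 at low light ck, 0, 0.23 and 0 at normal light with high salt and 0, 0 and 2.42 at normal light ck. It stood apart in the 2 libraries with both treatments, and its interaction was 6.04 ± 0.60 (SE, limma adjusted p = 0.0033). Outside those 2 libraries it reached a value of 1 only in the normal light ck library with 2.42 units. It therefore entered the test mainly through the group where it is high. Locus g13488 showed a like order, with 17.7 and 31.8 units at low light with high salt, 0 in the 3 low light ck libraries, 0.28, 0 and 0 at normal light with high salt and 2.35, 3.59 and 0 at normal light ck. Its interaction was 5.83 ± 0.70 (limma adjusted p = 0.011). Outside the combined treatment, g13488 reached a value of 1 only at 2.35 and 3.59 units, so its entry also rested on the group where it is high. Both loci rose with high salt at low light (limma adjusted p = 0.00066 for g86302 and 0.0093 for g13488), while their differences at normal light did not pass (0.47 and 0.14).

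The last 2 loci were lowest in the groups with only one of the treatments. Locus g22184, for which 2 of its 3 transcripts carry a B3 DNA-binding domain in the authors' annotation and the other a retrotransposon protein, had 4.70 and 2.51 units at low light with high salt, 0, 0.12 and 0 at low light ck, 0 in the 3 libraries of normal light with high salt and 6.62, 4.30 and 9.87 at normal light ck. Its interaction was 5.03 ± 0.56 (SE, limma adjusted p = 0.0062). Locus g18269 had 0.59 and 1.38 units at low light with high salt, 0.03, 0.12 and 0.20 at low light ck, 0.09, 0.02 and 0.06 at normal light with high salt and 9.24, 3.51 and 5.48 at normal light ck. Its interaction was 3.47 ± 0.47 (limma adjusted p = 0.032). In both, the 2 libraries of the combined treatment and the 3 of normal light ck lay above all 6 libraries that had only one of the treatments. Neither locus reached a value of 1 in those 6 libraries, so both entered the test through the groups where they are high. Each of these calls rests on values near 0 in some groups: with a pseudocount of 0.1 in place of 1, none of the 5 loci passed (limma adjusted p 0.089 to 0.12). Without replicate 1 of low light with high salt, 1 of the 4 loci still tested passed, and without replicate 2, 2 of 4 did.

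**Figure D1:**
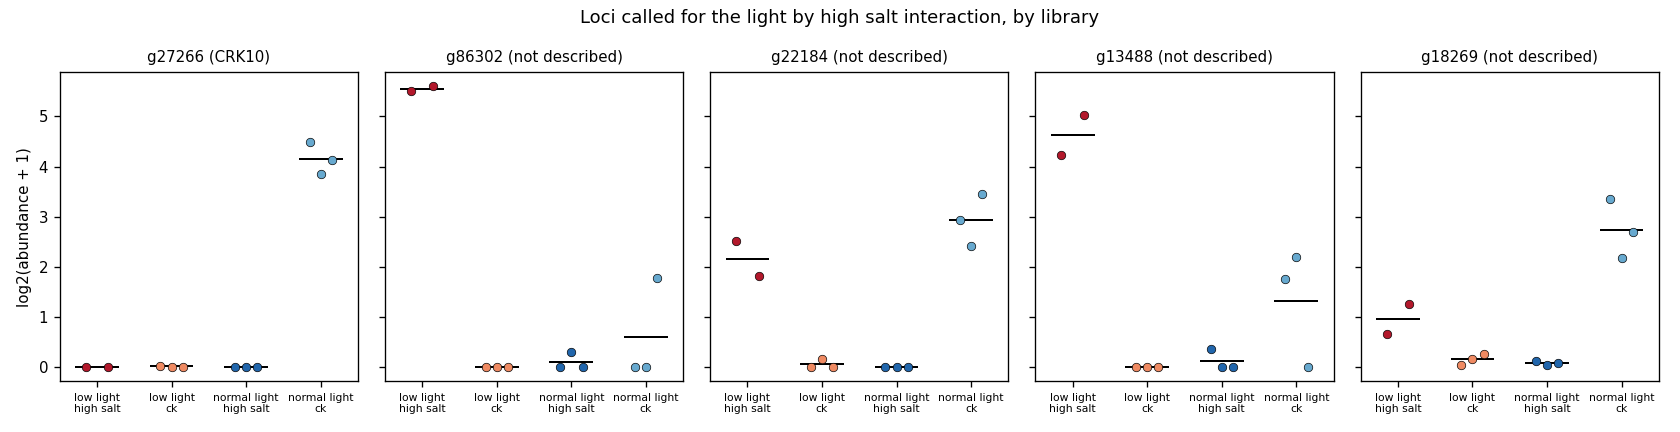
Abundance of the 5 loci that passed the interaction test, as log2(abundance + 1), with 1 point per library and a bar at the group mean, for low light with high salt, low light ck, normal light with high salt and normal light ck. CRK10 is above 0.1 units only at normal light ck, g86302 and g13488 are highest in the 2 libraries with both treatments, g22184 is highest in the combined treatment and at normal light ck, and g18269 is highest at normal light ck.

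Across all loci the group that stood farthest from the median of the 4 group means was most often normal light ck. It was normal light ck in 47.6% of all tested loci, in 421 of the 871 more positive loci at unadjusted p under 0.05 (48.3%) and in 1256 of the 1836 more negative ones (68.4%). The group with both treatments was the one farthest out in 17% of all tested loci, in 177 of the 871 (20.3%) and in 32 of the 1836 (1.74%). A salt change of at least 1 log2 unit at normal light but not at low light was present in 773 of the 1836 more negative loci (42.1%) and in 2578 of all 17665 loci (14.6%). The reverse, a change of that size at low light and not at normal light, was present in 96 of the 1836 (5.23%), in 225 of the 871 (25.8%) and in 1300 of all loci (7.36%). These shares describe the values that gave the interaction and are no separate test of it.

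Described loci with the smallest p for a more positive interaction came from several families, and none below passed the limma test over all loci (adjusted p 0.069 to 0.104). Beta-glucosidase 3 (g92910), a hydrolase of sugar conjugates, had 42.2 and 25.0 units at low light with high salt and 13, 33.3 and 12 at low light ck. It had 2.97, 6.40 and 0.48 units at normal light with high salt, against 57.6, 42.6 and 86.5 at normal light ck. At normal light the salt libraries lay below all ck libraries, while at low light the groups overlapped, and the interaction was 4.97 ± 0.80 (SE, adjusted p = 0.077). Photosystem I reaction center subunit IV (g94898), which helps dock ferredoxin at photosystem I, had 269.6 and 230.3 units at low light with high salt, against 61.1, 73.9 and 66.7 at low light ck. It had 131, 116 and 91.0 units at normal light with high salt, against 156, 358 and 121 at normal light ck. Its interaction was 2.63 ± 0.50 (limma adjusted p = 0.104), and only the low-light pair of groups was free of overlap.

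CASP-like protein 2D1 (g17), of a family related to the scaffold proteins of the Casparian strip, was set apart by its low-light check. It had 109 and 82.4 units at low light with high salt, against 29.4, 19.5 and 26.6 at low light ck. It had 107.5, 108 and 113 units at normal light with high salt, against 83.1, 92.9 and 89.4 at normal light ck. It rose with high salt at low light (1.89 ± 0.23 log2, SE, limma adjusted p = 0.0093), and at normal light its difference was 0.31 ± 0.20 (adjusted p = 0.36). The interaction itself was 1.59 ± 0.31 and did not pass (limma adjusted p = 0.104), although it did with median-of-ratios scaling (1.93, adjusted p = 0.024).

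Locus g1392 and locus g874 are named for transporters. ABC transporter C family member 8 (g1392), of a family that moves conjugates into the vacuole, had 12.4 and 15.2 units at low light with high salt, against 1.43 in each of the 3 low light ck libraries. It had 11.3, 12.1 and 5.50 units at normal light with high salt, against 51.7, 16.5 and 35.7 at normal light ck. Salt libraries thus lay above ck at low light and below ck at normal light, and the interaction was 4.27 ± 0.72 (SE, limma adjusted p = 0.085). Protein PIN-LIKES 6 (g874), of a family that holds auxin inside the endoplasmic reticulum, had an interaction of 3.75 ± 0.72 (limma adjusted p = 0.104), with means of 10.5 units at low light with high salt, 1.11 at low light ck, 13.9 at normal light with high salt and 31.7 at normal light ck.

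Most of the remaining more positive loci of that rank fell with high salt at normal light. A pair of cinnamoyl-CoA reductase 1 loci (g83637 and g91029), the entry to monolignol synthesis, averaged 12.8 and 6.73 units at low light with high salt and 7.04 and 3.62 at low light ck. At normal light they averaged 7.20 and 3.11 units with high salt, against 20.02 and 8.84 at ck, and their interactions were 2.18 ± 0.42 and 2.07 ± 0.41 (SE, limma adjusted p = 0.104 for each). Both fell with high salt at normal light (adjusted p = 0.025 and 0.031). CRK37 (g9858) was listed at 0 in the low light ck libraries and had 1.58 and 4.95 units at low light with high salt. Cytoplasmic phosphatidylinositol transfer protein 1 (g2275), an acidic leucine-rich nuclear phosphoprotein (g8673) and a replication protein A 70 kDa D-like locus (g15238) complete the 12 that CRK10 leads, with interactions of 2.63, 1.33 and 4.68.

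Of the 12 described loci with the smallest p for a more negative interaction, 4 were tubulins, the subunits of microtubules. Tubulin beta-5 chain (g13742) had 100.9 and 61.8 units at low light with high salt, against 81.6, 76.4 and 85.0 at low light ck. It had 117, 91.2 and 153 units at normal light with high salt, against 17.5, 13.2 and 9.98 at normal light ck. The normal light ck libraries alone were low, and the other 8 libraries lay between 61.8 and 153 units. This beta chain rose with high salt at normal light (3.06 ± 0.32 log2, SE, limma adjusted p = 0.0032) and had a difference of -0.03 ± 0.35 at low light. The interaction was -3.10 ± 0.47 (limma adjusted p = 0.069). The 3 tubulin alpha chain loci g82375, g81447 and g86493 had interactions of -2.37, -2.10 and -2.79 (limma adjusted p 0.077 to 0.097). These 3 share a name and had similar values in each group, so they may share reads and count for fewer genes.

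The other 8 places went to loci of several kinds. The beta subunit 1 of pyrophosphate-dependent phosphofructokinase (g23045), which uses pyrophosphate in place of ATP in glycolysis, had 31.9 and 29.6 units at low light with high salt, against 38.2, 44.0 and 36.6 at low light ck. It had 38.9, 39.4 and 36.9 units at normal light with high salt, against 15.03, 16.9 and 15.6 at normal light ck. Salt libraries lay below ck at low light and above ck at normal light, the replicates were close, and the interaction was -1.58 ± 0.24 (SE, limma adjusted p = 0.069). Phosphoenolpyruvate/phosphate translocator 1 (g16465), which carries phosphoenolpyruvate into the plastid, had an interaction of -2.38 ± 0.39 (limma adjusted p = 0.078), and its means were 40.4 units at low light with high salt, 78.9 at low light ck, 52.2 at normal light with high salt and 18.0 at normal light ck.

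A pair of loci for glucan endo-1,3-beta-glucosidase 14, a beta-glucanase, were also lowest at normal light ck. Locus g18083 averaged 40.7 units at low light with high salt and 95.1 at low light ck, and 49.7 at normal light with high salt and 9.05 at normal light ck, with an interaction of -3.33 ± 0.63 (SE, limma adjusted p = 0.104). Its sister g20874 had an interaction of -2.30 ± 0.43. Alpha-1,3-arabinosyltransferase XAT3 (g22820), which decorates grass xylan, the B3 domain protein IDEF1 (g23975), known in rice as a regulator of the iron deficiency response, and the transmembrane 9 superfamily members 11 and 9 (g13615 and g23972) had interactions of -1.64, -1.79, -1.38 and -1.31. All 12 of these loci rose with high salt at normal light and with low light in the absence of salt (limma adjusted p under 0.05 in each). Over all loci 4.13% and 13.8% did. The 12 were chosen by an interaction built from the same groups. These differences therefore partly follow from the choice and are no separate support. With high salt at low light none of the 12 passed the test, while 0.102% of all loci rose and 0.017% fell. The differences of the 12 at low light ran from -0.03 (g13742) to -1.08 (g18083).

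**Figure D2:**
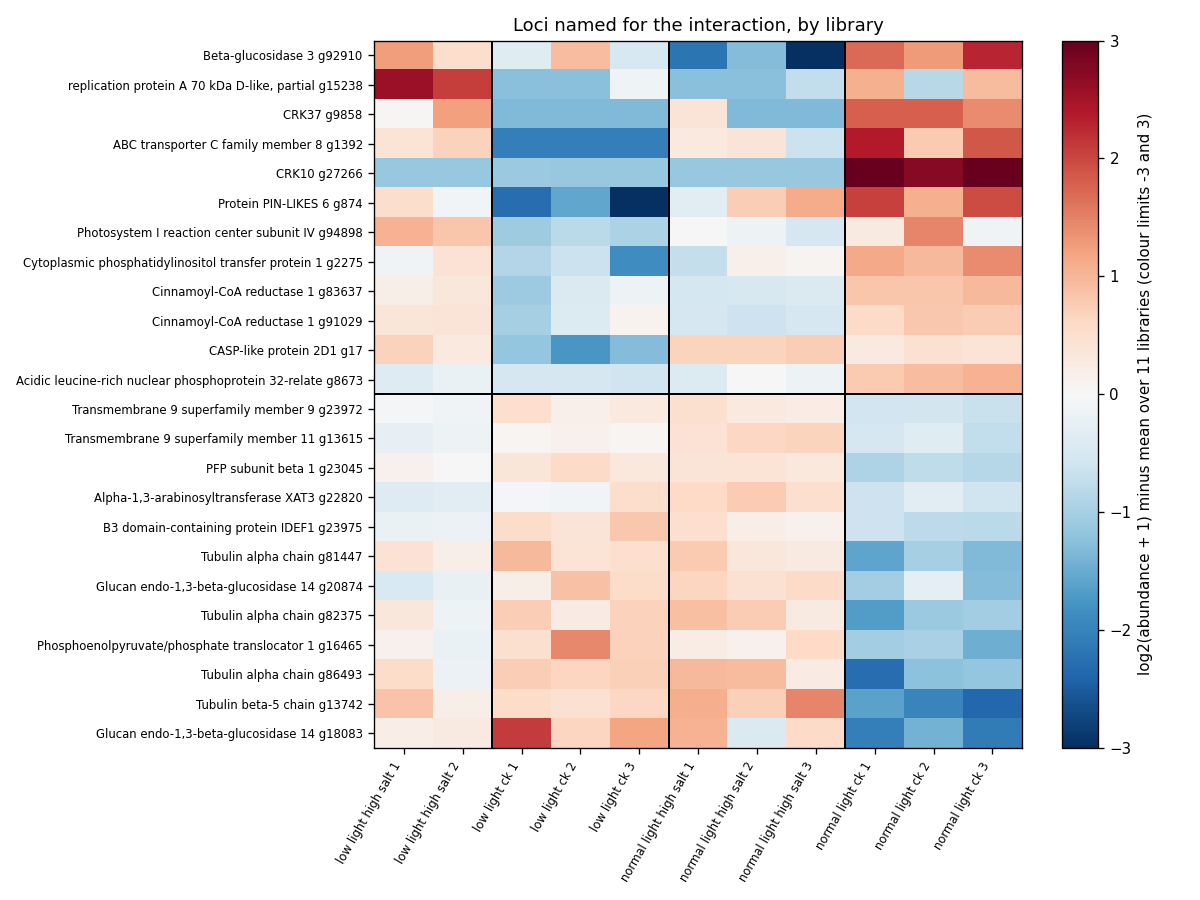
Log2(abundance + 1) of the 24 described loci with the smallest p in each direction, minus the mean of the locus over 11 libraries, with 1 column per library in the order low light with high salt, low light ck, normal light with high salt and normal light ck. The 12 loci above the line have a more positive salt change at low light and the 12 below it a more negative one, and in the lower set the 3 normal light ck columns are below the mean.

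Gene lists were read by counts and medians beside those of all tested loci. Lists of the photosystems, chloroplast electron carriers, carbon fixation and carotenoids had more loci on the positive side than on the negative, while those of light-harvesting proteins, chlorophyll synthesis, plastid ribosomal proteins and chloroplast proteases did not. Photosystem subunits had 23 of 68 tested loci at unadjusted p under 0.05 on the positive side (33.8%, against 4.93% of all loci) and 0 on the negative side, and a median interaction 1.08 above that of all loci. Their median salt change was 0.34 at low light and -0.57 at normal light. Of the 23 loci, 17 carry the name photosystem II 10 kDa polypeptide, out of 22 tested, and had nearly equal values, so they are likely to share reads and count for less than 17 genes. The 23 loci carry 5 different names of the 18 tested. None passed the test over all loci, and without 1 library the count ranged over 17 to 36 and the relative median over 0.78 to 1.52.

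Locus g94790, one of the copies of that photosystem II protein of the oxygen-evolving side, averaged 241 units at low light with high salt and 140 at low light ck, and 248 at normal light with high salt and 382 at normal light ck. Its interaction was 1.40 ± 0.33 (SE, limma adjusted p = 0.15). It was lower at low light ck than at normal light ck (limma adjusted p = 0.0021), and the 2 salt groups differed little in the mean. Oxygen-evolving enhancer protein 3 (g99724) averaged 79.3 and 63.2 units at low light with high salt and ck, and 71.6 and 144 at normal light with high salt and ck. Light-harvesting proteins, which feed light energy to both photosystems, had no such count: 0 of 35 tested loci were on the positive side at unadjusted p under 0.05, 1 was on the negative side, and their median was 0.23 above that of all loci. Without 1 library each of these counts ranged over 0 to 5 and the relative median over -0.19 to 0.98, so this list was unsteady. The locus on the negative side, chlorophyll a-b binding protein 1B (g87876), had an interaction of -5.62 ± 2.33 (limma adjusted p = 0.29), and its normal light ck libraries held 9.23, 606 and 2.57 units, so replicate 2 of that group stood far from the other 2.

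**Figure D3:**
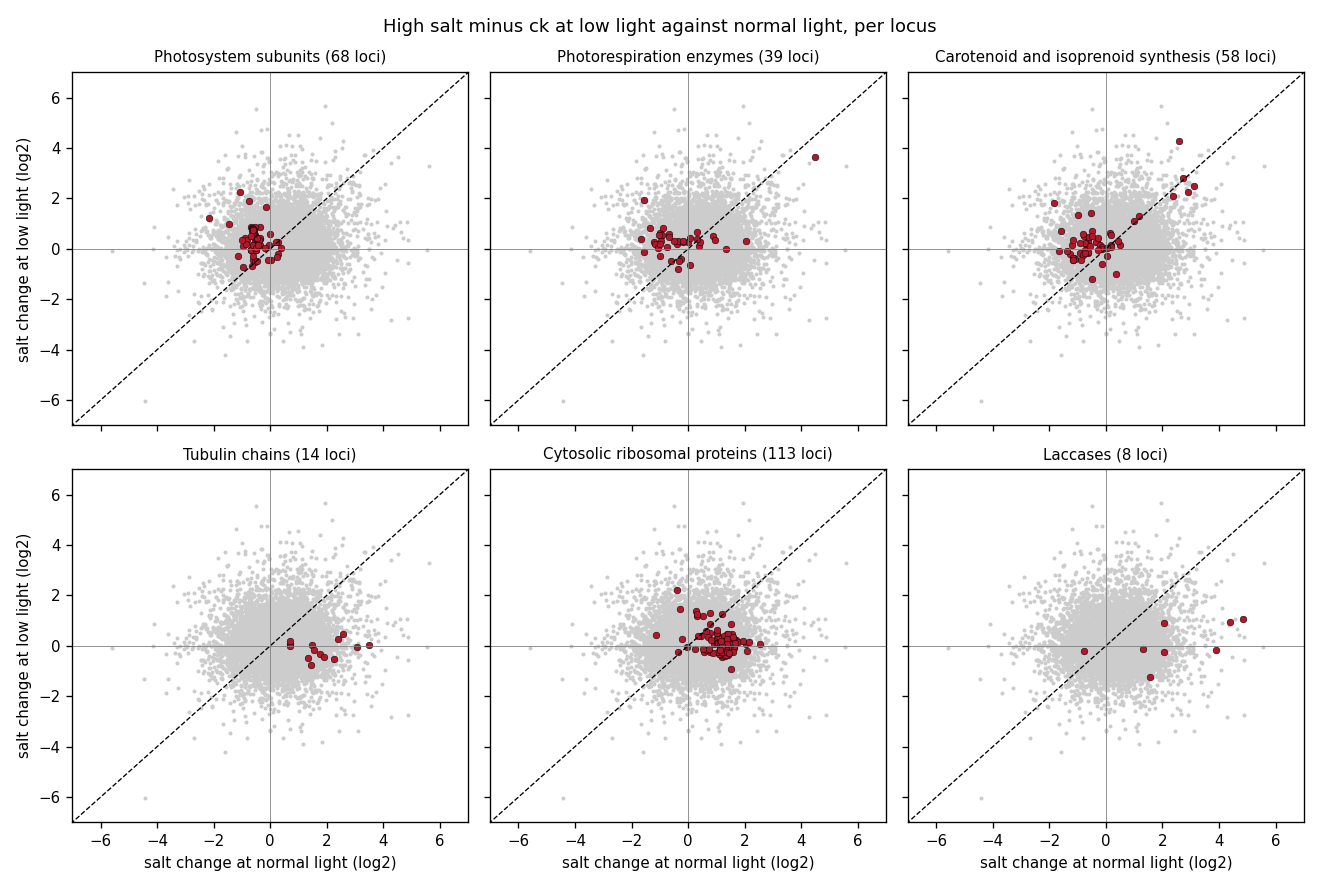
Change with high salt at low light (vertical axis, log2) against change with high salt at normal light (horizontal axis, log2) for 17665 loci in grey, with the tested members of 6 lists in red and the line of equal change dashed. Points above the line have a positive interaction: photosystem subunits, photorespiration enzymes and carotenoid and isoprenoid synthesis lie mostly above and to its left, and tubulin chains, cytosolic ribosomal proteins and laccases mostly below and to its right.

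The lists for carbon fixation leaned the same way. Photorespiration enzymes, which recover the carbon lost when Rubisco binds oxygen, had 13 of 39 tested loci on the positive side at unadjusted p under 0.05 (33.3%) and 1 on the negative side, with a relative median of 0.93. The 13 loci carry 10 names, among them glycolate oxidase GLO1 (g81553), which averaged 191 units at low light with high salt and 115 at low light ck, and 97.2 at normal light with high salt and 256 at normal light ck (interaction 2.20 ± 0.67, SE, limma adjusted p = 0.19). Phosphoglycolate phosphatase 1B (g84345), the first enzyme of the pathway, had an interaction of 1.38 ± 0.44, with means of 62.8, 56.5, 104 and 236 units in the order low light with high salt, low light ck, normal light with high salt and normal light ck. The exception on the negative side was GLO4 (g8200), at -1.33 ± 0.44. Without 1 library the positive count ranged over 5 to 15.

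Calvin cycle enzymes had 4 of 19 tested loci on the positive side (21.1%) and 1 on the negative, with a relative median of 1.09. The positive count was 9 with median-of-ratios scaling and 2 to 7 without 1 library. Glyceraldehyde-3-phosphate dehydrogenase B (g83929), which reduces the product of carbon fixation, had 89.2 and 131 units at low light with high salt, against 55.3, 66.5 and 67.04 at low light ck. It had 65.5, 71.4 and 97.3 units at normal light with high salt, against 141, 224 and 118 at normal light ck. Salt libraries lay above ck at low light and below ck at normal light (interaction 1.77 ± 0.40, SE, limma adjusted p = 0.14). The Rubisco small chain and activase loci had the largest relative median among the lists read, at 1.15. At unadjusted p under 0.05, 2 of the 15 loci were on the positive side. All 15 had an interaction above 0, against 36.3% of all loci. The 15 loci carry 5 names, and 11 of them carry the same small chain name, so they may share reads and count for fewer genes. That count of 2 became 5 with median-of-ratios scaling and 0 to 6 without 1 library. A small chain locus (g87757) averaged 1554 units at low light with high salt and 1527 at low light ck, and 1430 at normal light with high salt and 3386 at normal light ck. The 3 groups other than normal light ck thus lay close together, and the interaction was 1.27 ± 0.47 (limma adjusted p = 0.25).

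Chloroplast electron carriers and ATP synthase had 5 of 26 tested loci on the positive side (19.2%) and 1 on the negative, and a relative median of 0.88. Leaf ferredoxin-NADP reductase (g18572), which makes the NADPH of the chloroplast, had 147 and 167 units at low light with high salt, against 125, 135 and 94.5 at low light ck. It had 137, 134 and 145 units at normal light with high salt, against 218, 241 and 192 at normal light ck, and the interaction was 1.06 ± 0.31 (SE, limma adjusted p = 0.18). Carotenoid and isoprenoid synthesis had 12 of 58 loci on the positive side (20.7%) and 0 on the negative, with a relative median of 0.92. Prolycopene isomerase (g19716), which turns the carotenoid precursor to its all-trans form, averaged 8.37 units at low light with high salt and 5.04 at low light ck, and 6.76 at normal light with high salt and 22.8 at normal light ck (interaction 2.29 ± 0.49, limma adjusted p = 0.12). With median-of-ratios scaling 22 loci of the carotenoid list and 8 of the electron carrier list were on the positive side. Of the 12 loci of the carotenoid list, 5 are zeaxanthin epoxidases, whose product leads to abscisic acid. These 5 may share reads and count for fewer genes.

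The 7 lists with a relative median above 0.7 in which salt at normal light went with a negative median (Rubisco, Calvin cycle, photosystem, photorespiration, carotenoid, electron carrier and nitrogen lists) all had a median salt change between -0.27 and 0.34 at low light. With high salt at normal light, 4 of 58 carotenoid and isoprenoid loci fell, 3 of 19 Calvin cycle loci, 2 of 15 Rubisco loci, 2 of 26 electron carrier loci, 2 of 68 photosystem loci, 1 of 39 photorespiration loci and 1 of 27 nitrogen loci, against 1.26% of all tested loci. Those that rose were 3 of the carotenoid and isoprenoid loci and 1 each of the Calvin cycle, electron carrier and photorespiration loci, against 4.13% of all. Chlorophyll synthesis and breakdown stood near all loci, with 1 of 25 on the positive and 3 on the negative side and a relative median of 0.09. Its uroporphyrinogen decarboxylase (g17720), an enzyme of tetrapyrrole synthesis, averaged 291 units at low light with high salt and 458 at low light ck, and 293 at normal light with high salt and 151 at normal light ck (interaction -1.55 ± 0.39, SE, limma adjusted p = 0.16). Nitrogen uptake and assimilation had 4 of 27 loci on the positive side (14.8%, against 4.93% of all loci) and 1 on the negative. The list was led by ferredoxin-dependent glutamate synthase (g92307, interaction 1.25 ± 0.39).

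Tubulin chains had the highest share of loci on the negative side: 10 of 14 tested at unadjusted p under 0.05 (71.4%, against 10.4% of all loci), 0 on the positive side, and a median 1.84 below that of all loci. The 10 loci carry 6 names of the 8 tested. The list was drawn up after the values were seen, so the count is a description. The summed abundance of the 14 loci was 544 and 449 units at low light with high salt, against 516, 504 and 574 at low light ck. It was 750.1, 699 and 761 units at normal light with high salt, against 160, 198 and 143 at normal light ck. The normal light ck libraries were below all others, and those of normal light with high salt above all others. Of the 14 loci, 9 rose with high salt at normal light, against 4.13% of all loci. At low light 0 of the 14 passed, where 0.102% of all loci rose and 0.017% fell. All 14 had an interaction below 0, against 63.7% of all loci. The count on the negative side was 9 with median-of-ratios scaling and 9 or 10 without any 1 library. Actins and motor proteins, also listed after the values were seen, had 15 of 73 loci on the negative side (20.5%) and 6 on the positive, and 9 on each side with median-of-ratios scaling.

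Laccases, copper oxidases that polymerise lignin, had 5 of 8 tested loci on the negative side (62.5%), 0 on the positive, and a relative median of -2.27. Laccase-13 (g27393) had 8.12 and 8.85 units at low light with high salt, against 8.59, 0 and 8.39 at low light ck. It had 89.7, 38.7 and 11.6 units at normal light with high salt, against 0.15, 0 and 0.67 at normal light ck. Laccase-13 rose with high salt at normal light (4.84 ± 0.82 log2, SE, limma adjusted p = 0.018), the low-light groups overlapped, and the interaction was -3.76 ± 1.23 (adjusted p = 0.20). Laccase-10 (g13265) rose likewise, with means of 38.5 units at normal light with high salt and 0.39 at normal light ck. Replicate 3 of normal light with high salt was the lowest of its group for the summed laccases, at 83.2 units against 345 and 266 in the other two. Without 1 library the count on the negative side ranged over 1 to 6.

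Other wall genes had smaller shares on the negative side. Cell wall synthesis and loosening had 15 of 61 loci on the negative side (24.6%), 1 on the positive, and a relative median of -0.62. Without 1 library the negative count ranged over 8 to 26. Probable xyloglucan glycosyltransferase 7 (g97203), which builds the backbone of a hemicellulose, had 1.53 and 1.88 units at low light with high salt, against 4.11, 5.78 and 5.48 at low light ck. It had 10.7, 6.94 and 2.32 units at normal light with high salt, against 2.01, 0.83 and 0.76 at normal light ck, and the interaction was -2.83 ± 0.62 (SE, limma adjusted p = 0.13). Pathogenesis-related proteins, which include the beta-glucanases above, had 7 of 34 loci on the negative side (20.6%) and a relative median of -0.24. Phenylpropanoid and flavonoid synthesis was split, with 8 of 76 loci positive (10.5%) and 12 negative (15.8%), and 10 and 6 with median-of-ratios scaling. Class III peroxidases had 1 of 15 on the negative side (6.67%, against 10.4% of all loci).

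Cytosolic ribosomal proteins had the most loci on the negative side among the lists: 63 of 113 tested loci at unadjusted p under 0.05 (55.8%), 2 on the positive side, and a relative median of -0.97. The 63 loci carry 42 names of the 58 tested. Their summed abundance over 118 loci was 13949 and 11671 units at low light with high salt, against 7447, 15762 and 13832 at low light ck. It was 8100.2, 7884 and 9224 units at normal light with high salt, against 2764, 3669.8 and 3362 at normal light ck. Of the 113 loci, 54 rose with high salt at normal light, against 4.13% of all loci. At low light 0 of the 113 passed, where 0.102% of all loci rose and 0.017% fell. The ribosomal protein S5 locus g84441 of the small subunit averaged 19.5 units at low light with high salt and 26.4 at low light ck, and 17.2 at normal light with high salt and 6.45 at normal light ck (interaction -1.72 ± 0.38, SE, limma adjusted p = 0.13). With median-of-ratios scaling 27 of the loci were on the negative side, against 920 of 17436 loci in all (5.28%), and without 1 library 32 to 83 were.

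**Figure D4:**
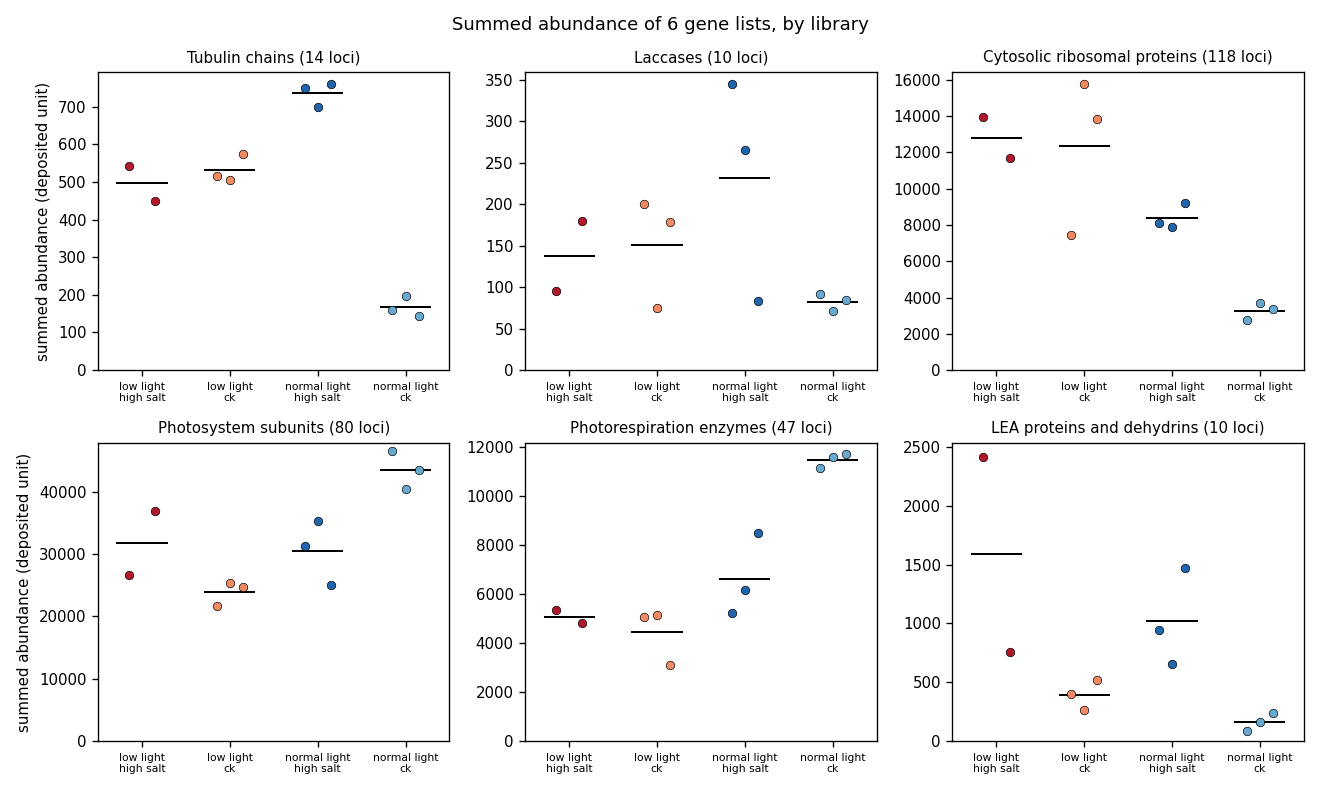
Summed abundance of 6 gene lists in the deposited unit, with 1 point per library and a bar at the group mean, for low light with high salt, low light ck, normal light with high salt and normal light ck. The normal light ck libraries are the lowest for tubulin chains and cytosolic ribosomal proteins and the highest for photosystem subunits and photorespiration enzymes, while LEA proteins and dehydrins are higher with salt at both lights.

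Other parts of the protein machinery had fewer such loci. Translation factors, listed after the values were seen, had 20 of 71 on the negative side (28.2%) and 1 on the positive, with a relative median of -0.34. The negative count was 9 with median-of-ratios scaling and 9 to 26 without 1 library. Plastid ribosomal proteins had 2 of 31 on the negative side (6.45%) and a relative median of -0.15. The proteasome and ubiquitin list had 36 of 272 on the negative side (13.2%) and a relative median of -0.09, with 1 on the positive, and heat shock proteins and chaperones had 14 of 107 (13.1%) with 5 on the positive side, shares near the 10.4% of all loci. With median-of-ratios scaling both turned, to 10 positive and 8 negative for the proteasome list and 11 positive and 7 negative for the chaperones. In the chaperone list the chloroplast protein dnaJ 20 (g96403), a helper of Hsp70, had 52.7 and 29.5 units at low light with high salt, against 43.9, 25.4 and 24.1 at low light ck. It had 37.0, 69.3 and 61.1 units at normal light with high salt, against 176, 245 and 181 at normal light ck, and the interaction was 2.24 ± 0.47 (SE, limma adjusted p = 0.12). Argininosuccinate synthase (g22228), of arginine synthesis, had an interaction of -1.96 ± 0.39 in the amino acid list, also drawn up after the values were seen, where 15 of 67 loci were on the negative side (22.4%) and 7 with median-of-ratios scaling.

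Dependence on light was not detected for the classical protective proteins of the salt response. LEA proteins and dehydrins, which protect drying cells, had 0 of 7 tested loci at unadjusted p under 0.05 in either direction and a relative median of -0.06. Without 1 library that median ranged over -0.73 to 0.71, so it was unsteady. Their median salt change was 2.06 at low light and 2.40 at normal light. Their summed abundance over 10 loci was 2416 and 756 units at low light with high salt, against 396, 261 and 519 at low light ck. It was 940.2, 653 and 1467 units at normal light with high salt, against 84.5, 158 and 236 at normal light ck. Salt libraries lay above ck at each light. At normal light 2 of the 7 loci rose, against 4.13% of all loci. Among them was dehydrin DHN3 (g97223, 2.64 ± 0.57 log2, SE, limma adjusted p = 0.031), whose difference at low light was 1.66 ± 0.64 (adjusted p = 0.53). The interaction of that locus was -0.98 ± 0.86 (adjusted p = 0.61). A p that misses the threshold does not show that light made no difference.

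Osmolyte synthesis had 0 of 34 loci on the positive side and 3 on the negative (8.82%, against 10.4% of all loci). The 3 loci carry 1 name of the 17 tested, so they may share reads and count for fewer genes. With median-of-ratios scaling 1 locus of the list was on the negative side. Betaine aldehyde dehydrogenase 2 (g25145), the last step to glycine betaine, had 44.6 and 41.4 units at low light with high salt, against 29.6, 24.2 and 58.7 at low light ck. It had 81.0, 64.1 and 99.3 units at normal light with high salt, against 16.4, 19.7 and 26.1 at normal light ck. It rose with high salt at normal light (1.93 ± 0.31 log2, SE, limma adjusted p = 0.015), its low-light groups overlapped, and the interaction was -1.63 ± 0.46 (adjusted p = 0.17). Sodium and potassium transporters and proton pumps had 4 of 63 loci on each side and a relative median of 0.08, and with median-of-ratios scaling 5 on the positive side and 1 on the negative. Pyrophosphate-energized membrane proton pump 3 (g2089) had an interaction of -0.73 ± 0.24. Aquaporins had 1 of 6 loci on the negative side (16.7%), SIP1-1 (g1573, -1.01 ± 0.38).

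The abscisic acid list had 5 of 29 loci on the positive side (17.2%, against 4.93% of all loci) and 0 on the negative, with a relative median of 0.72. All 5 are zeaxanthin epoxidases, which the carotenoid list also holds, and no locus of abscisic acid perception or signalling was among them. The 5 loci are named for the same enzyme, so they may share reads and count for fewer genes. The one with the smallest p (g91492) had 39.8 and 35.1 units at low light with high salt, against 2.42, 27.2 and 12.1 at low light ck. It had 27.4, 8.95 and 20.1 units at normal light with high salt, against 89.2, 19.6 and 149 at normal light ck. Salt libraries lay above ck at low light, the normal-light groups overlapped, and the interaction was 3.68 ± 1.26 (SE, limma adjusted p = 0.22). The jasmonate and lipoxygenase list had 2 of 26 on the positive side (7.69%), with linoleate 9S-lipoxygenase 1 (g22292) at 1.28 ± 0.31.

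Among redox genes only the antioxidant enzymes exceeded the 10.4% of all loci on the negative side by more than a few loci, and not with median-of-ratios scaling. They had 8 of 33 loci there (24.2%) and 1 on the positive side, with a relative median of -0.31, and with median-of-ratios scaling 1 of the loci was on the negative side and 2 were on the positive. A superoxide dismutase locus (g25538), which removes superoxide, had 202 and 166 units at low light with high salt, against 173, 123 and 290.1 at low light ck. It had 224, 262 and 113 units at normal light with high salt, against 54.4, 63.5 and 53.04 at normal light ck. The dismutase rose with high salt at normal light (1.71 ± 0.34 log2, SE, limma adjusted p = 0.024), with a difference of -0.00 ± 0.38 at low light and an interaction of -1.71 ± 0.51 (adjusted p = 0.18). Thioredoxins and glutaredoxins had 4 of 40 on the negative side (10%) and 1 on the positive, thioredoxin M3 (g23755, 1.41 ± 0.40), a chloroplast isoform. Glutathione S-transferases had 2 of 26 (7.69%), with GSTU6 (g27181) at -2.13 ± 0.82.

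Respiratory burst oxidases, which make apoplastic superoxide for signalling, had 1 of 7 loci on the negative side (14.3%, against 10.4% of all loci). Their relative median was -0.77. All 7 had an interaction below 0, against 63.7% of all loci. The 7 loci carry 2 names, and 6 of them are named homolog B, so they may share reads and count for fewer genes. The oxidase homolog B locus g92222 had 2.28 and 2.38 units at low light with high salt, against 2.80, 2.16 and 3.31 at low light ck. It had 9.17, 9.62 and 4.17 units at normal light with high salt, against 1.06, 1.39 and 1.52 at normal light ck. It rose with high salt at normal light (1.83 ± 0.32 log2, SE, limma adjusted p = 0.019), and the interaction was -1.99 ± 0.48 (adjusted p = 0.15). Without 1 library the count ranged over 1 to 5.

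Receptor kinases and disease resistance genes had loci on both sides, set here against 4.93% of all loci on the positive side and 10.4% on the negative. Cysteine-rich receptor-like kinases had 5 of 91 tested loci on each side (5.49% and 5.49%), with 1 call, the CRK10 locus above. Wall-associated and lectin receptor kinases had 17 of 183 on the positive side (9.29%) and 15 on the negative (8.2%). Wall-associated receptor kinase 2 (g9281), which binds pectin, had 7.14 and 12.6 units at low light with high salt, against 3.13, 10.3 and 10.8 at low light ck. It had 24.5, 15.3 and 115 units at normal light with high salt, against 0.14, 0.43 and 0.19 at normal light ck, and the interaction was -4.51 ± 1.19 (SE, limma adjusted p = 0.16). The NB-ARC disease resistance list, intracellular receptors for pathogen effectors, had 29 of 411 on the positive side (7.06%) and 17 on the negative (4.14%), with a relative median of 0.21. With median-of-ratios scaling these counts were 36 and 10, and without 1 library they ranged over 9 to 33 and 8 to 28. RGA4 (g8996) had 3.10 and 2.51 units at low light with high salt, against 33.4, 32.2 and 12.8 at low light ck, and 4.73, 11.8 and 15.2 at normal light with high salt, against 4.33, 0.89 and 5.32 at normal light ck (interaction -4.13 ± 0.83, limma adjusted p = 0.11).

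Transcription factor families were led by a factor that was high at low light ck. The ethylene-responsive factor RAP2-6 (g27902) had 14.3 and 9.23 units at low light with high salt, against 26.5, 30.7 and 35.9 at low light ck. It had 3.43, 2.44 and 4.06 units at normal light with high salt, against 0.58, 1.63 and 0.48 at normal light ck. Salt libraries lay below ck at low light and above ck at normal light, and the interaction was -2.56 ± 0.51 (SE, limma adjusted p = 0.104). The ERF and DREB list had 5 of 31 loci on the negative side (16.1%, against 10.4% of all loci). The NAC list had 3 of 36 (8.33%) and the WRKY list 2 of 27 (7.41%) with a relative median of -0.46. The MYB list had 4 of 37 (10.8%) with 2 on the positive side. The shares of the NAC, WRKY and MYB lists were thus near or below that of all loci. NAC100 (g22429, -1.81 ± 0.52) and MYB52 (g85756, -2.30 ± 0.75) were among those on the negative side. The WRKY locus with the smallest p at a mean of at least 5 units, a probable WRKY69 (g19855, -0.79 ± 0.37), missed the unadjusted threshold (limma unadjusted p = 0.053).

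Clock genes had 1 of 23 loci on each side, and photoreceptors and light signalling had 1 of 36 on the positive and 2 on the negative. With median-of-ratios scaling there were 4 clock loci and 8 photoreceptor loci on the positive side and 0 and 1 on the negative, against 8.18% and 5.28% of all loci, and without 1 library up to 4 and 7 were on the positive side. REVEILLE 2 (g1767), a morning MYB-like factor of the clock, had 4.56 and 5.29 units at low light with high salt, against 7.06, 2.44 and 0.84 at low light ck. It had 17.7, 36.4 and 67.03 units at normal light with high salt, against 77.4, 139 and 138 at normal light ck. The low-light libraries were below all normal-light ones, and the interaction was 2.34 ± 0.78 (SE, limma adjusted p = 0.21). Cryptochrome-1 (g17986), a blue light receptor, averaged 8.87 units at low light with high salt and 17.1 at low light ck, and 10.8 at normal light with high salt and 3.18 at normal light ck (interaction -1.99 ± 0.82).

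In most lists of general metabolism the negative side held more loci than the positive, as it did over all loci (1836 against 871), and the counts depended on the scaling. Those on the negative side were 13 of 56 for mitochondrial respiration and the TCA cycle (23.2%), 30 of 187 for vesicle trafficking (16%), 19 of 113 for splicing factors and RNA helicases (16.8%), 10 of 74 for aminoacyl-tRNA ligases (13.5%) and 12 of 78 for fatty acid and membrane lipid synthesis (15.4%), all lists drawn up after the values were seen. Hormone genes had 12 of 95 on the negative side and 2 on the positive, and chloroplast proteases and import 5 of 54 and 2, both also listed after the values were seen. ABC transporters had 9 of 87 on the negative side and 6 on the positive, beta-glucosidases 5 of 42 and 4, cytochrome P450s 5 of 72 and 7, calcium and MAP kinase signalling 6 of 115 and 3, and histones and cell cycle genes 6 of 62 and 1. With median-of-ratios scaling the negative side held 14 of the vesicle trafficking loci, 8 of the splicing loci, 8 of the respiration loci, 6 of the ligase loci, 5 of the lipid loci and 6 of the hormone loci. The direction turned with that scaling for chloroplast proteases and import (7 positive, 0 negative), ABC transporters (14 and 6), beta-glucosidases (6 and 4), calcium and MAP kinase signalling (8 and 2) and lipid synthesis (6 and 5), and the histone count became 1 and 2. Sucrose, starch and fructan metabolism had 8 of 74 on the negative side (10.8%) and 4 on the positive (3 and 5 with median-of-ratios scaling), the 4 including alpha-amylase type B (g23732), a starch hydrolase. That locus was at or below 0.37 units in every library of the comparison but those of normal light ck, where it had 11.9, 3.07 and 7.93 (interaction 2.62 ± 0.55, SE, limma adjusted p = 0.12). It reached a value of 1 only at normal light ck, so it entered the test only through the group where it is high. Pentatricopeptide repeat proteins, which process organelle RNA, had 15 of 191 on the negative side (7.85%) and 5 on the positive, and 8 and 7 with median-of-ratios scaling. One of them (g2655) was high in the combined treatment, with 21.5 and 14.1 units at low light with high salt and 4.17, 2.05 and 2.32 at low light ck, and 2.85, 2.10 and 2.70 at normal light with high salt and 1.36, 1.22 and 1.26 at normal light ck. It rose with high salt at low light (2.30 ± 0.30 log2, adjusted p = 0.016), and its interaction was 1.67 ± 0.40 (limma adjusted p = 0.15).

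**Figure D5:**
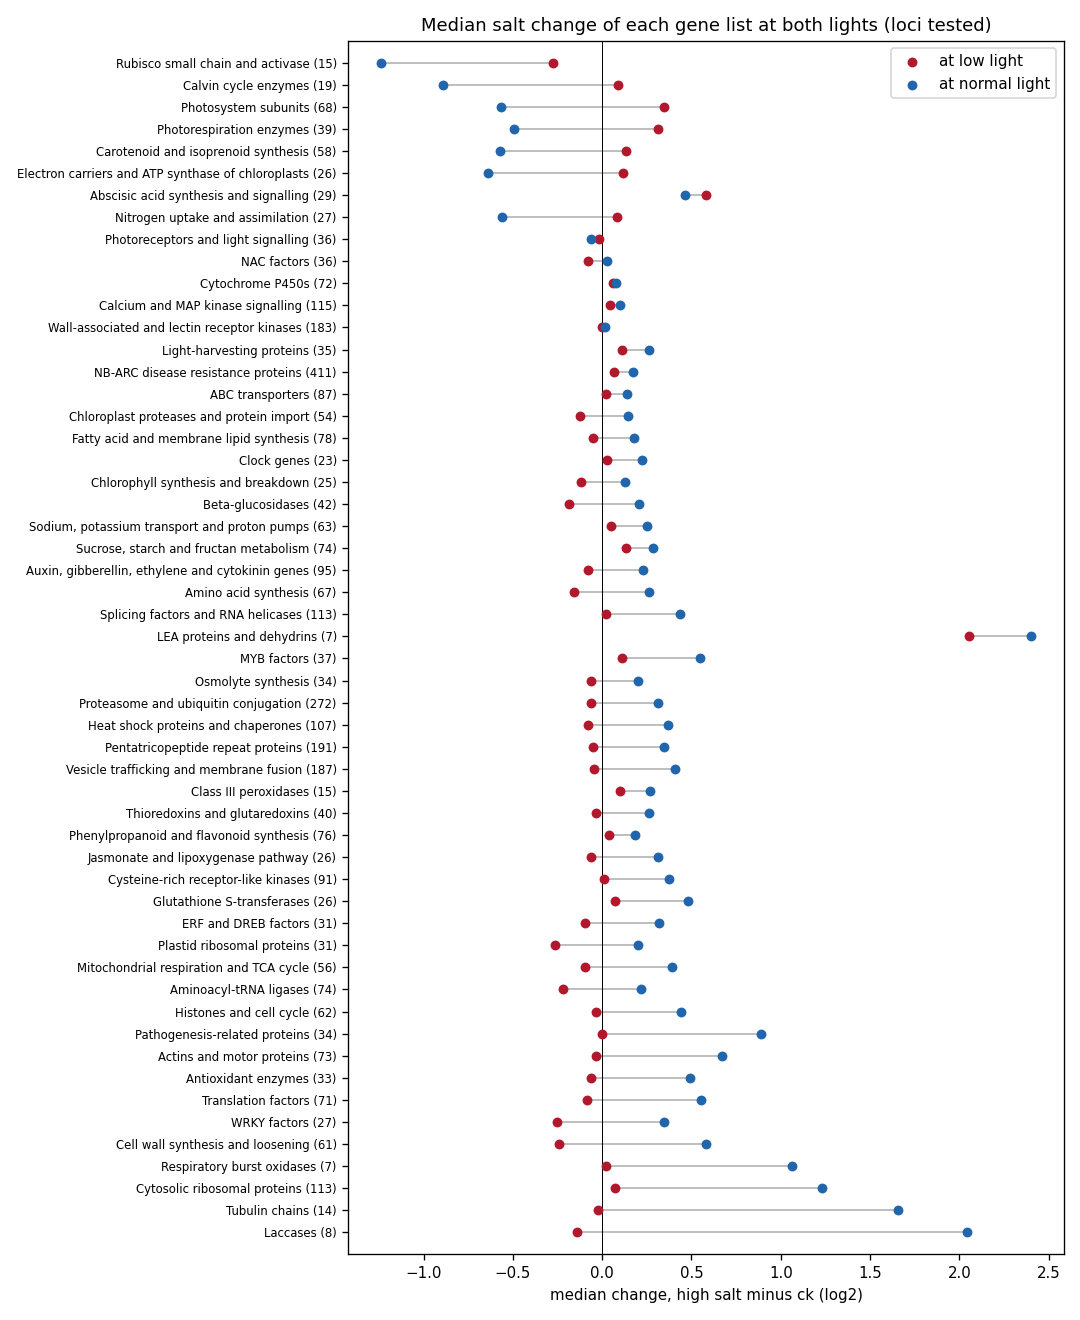
Median change with high salt at low light (red) and at normal light (blue) for each gene list of 7 or more tested loci, in log2 units, with the number of loci in brackets and the lists ordered by their median interaction. Chloroplast lists at the top have a negative median at normal light and medians from -0.27 (Rubisco) to 0.34 (photosystem subunits) at low light. Laccases, tubulin chains and cytosolic ribosomal proteins at the bottom have a positive median at normal light and a median near 0 at low light, and LEA proteins and dehydrins are above 2 at both.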

How the data were processed

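Leaf RNA of 14 libraries was sequenced. The authors deposited 1 table with an abundance per assembled transcript and library, treated here as a signal of unnamed unit: the deposited values are not whole, are never negative and are of a kind with TPM or FPKM. StringTie 1.3.0, HISAT2 2.0 and Bowtie 0.12.2 are listed, per the submitters' processing notes, with a mouse genome build. Their roles are not given, and read depth is unknown. Of 65536 lines with the header, 4 are broken. The 65531 complete transcripts belong to 29563 loci, and 3 of these (17 transcripts), cut by a table edge, were dropped. A locus takes the name of its most abundant annotated transcript, which is a database hit from another species. Reads of near-identical copies could be split between them.

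The filter kept loci that reached 1 in 3 or more of the 11 libraries. On log2(value + 1), limma 3.58.1 (R 4.3.3) was fitted to 5 group means over 14 libraries, using eBayes with trend and robust, and p was adjusted by Benjamini-Hochberg over 17665 loci. The low salt libraries entered only to share the estimate of the spread. Standard errors come from that fit. The script was tested on simulated data. Of the fungal best hits 111 loci would have passed the filter, and 0 were called when they were kept.

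Members and lists were chosen with earlier results of these data known, 11 of the 55 lists after the values were seen, and the search terms of some lists were corrected after the names in the table were seen. Named loci are described, with a mean of at least 5 in 1 of the 4 groups: in each direction up to 12 that passed, filled by the smallest p with an absolute interaction of at least 1 at unadjusted p under 0.05, and for each list up to 3 that passed or else the smallest p. Other loci of a list were named after their values were seen. Replicates correlated at 0.830 to 0.949 over 10 pairs across loci, and no pair held identical values. Alternatives were other scalings, filters, a pseudocount of 0.1, only the 11 libraries, a replicate block, single transcripts, and omission of each library. Sequences were not printed, as the table holds none. Python 3.11.15 with matplotlib 3.10.9 and pandas 2.3.3 drew figures and summed lists.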

Additional observations from a re-analysis of the deposited data

Results flagged for a closer look

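The salt change differed between low light and normal light in 5 loci by limma's test of the interaction (adjusted p under 0.05). The differences, low light minus normal light on the log2(value + 1) scale, were 6.043 for g86302, 5.826 for g13488, 5.031 for g22184, 4.148 for g27266 (CRK10) and 3.466 for g18269. In each of them at least 1 of the 4 groups was listed at or near 0, and none passed with a pseudocount of 0.1.

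Loci with a fungal best hit, which the comparison leaves out, held more of the abundance in 8 libraries than in any library of normal light ck, where they held 0.0334% to 0.042%. The shares were 0.4022% and 0.2748% at low light with high salt, 0.0719%, 0.2707% and 0.1807% at low light ck, and 0.0866%, 0.095% and 0.1202% at normal light with high salt. Both libraries of the combined treatment lay above all others of the 4 groups. With fungal best hits kept in the test, the interaction gave the same 5 calls, and 0 of the 111 fungal loci were called. Their part in the other results was not tested.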

How the results depend on the processing

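No called locus, and none named by the rule, changed the sign of its interaction under the alternatives it was tested in (g94790, g99724, g84345, g8200 and g13265 were not followed), while the counts of calls moved. The 5 more positive calls became 9 with median-of-ratios scaling, 98 with no filter, 3 with only the 11 libraries, 0 with a pseudocount of 0.1, 17 over transcripts, 0 with a filter of 5 in 3 libraries, and 37 with a filter of 1 in 2 libraries, an alternative added after seeing the data. Of the 5 loci, 5 were called again with scaling, 3 with only the 11 libraries and 0 of the 1 tested with the filter of 5. The count of 0 more negative calls became 9 with no filter, 1 over transcripts and 7 with 1 in 2 libraries. Leaving out a library gave 1 to 22 positive and 0 to 26 negative calls: 1 positive without replicate 1 of low light with high salt, 22 without replicate 2 of normal light ck, and 26 negative without replicate 3 of normal light with high salt.

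At unadjusted p under 0.05 the 871 positive loci became 1426 with median-of-ratios scaling, 1375 with no filter, 1877 over transcripts and 546 with the filter of 5, and 565 to 960 without 1 library. The 1836 negative loci became 920 with scaling and 4209 over transcripts, and 1066 to 2114 without 1 library. The median interaction of -0.27 became 0.004 with median-of-ratios scaling, -0.166 with no filter and -0.396 with library totals, and -0.34 to -0.19 without 1 library. The cause of these shifts was not tested.

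Replicate numbers are shared between groups, and the deviations of same-numbered libraries from their group means correlated weakly (-0.186 to 0.175, median -0.011). Deviations within such small groups cancel out, so these correlations cannot decide whether the numbers mark pairs. The labels do not say, and no pairing was used in the main test. With a replicate block there were 5 positive calls, 4 of them among the 5 loci, 0 negative calls and 1575 negative loci at unadjusted p under 0.05. The group with both treatments has 2 libraries. Without one of them, the lone library is assumed to vary like the other groups. The depth behind the values is unknown, so low values carry an error that cannot be given.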

Other observations

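Loci that reached a value of 1 only in the combined treatment could not enter the test, since its filter needs 3 libraries. In both libraries of low light with high salt, 147 loci that are not fungal reached a value of 1 while staying below 1 in the other 9 libraries, and 39 of them are described. The 9 other pairs of libraries within a group gave 14 to 140 such loci, the highest being replicates 1 and 2 of normal light with high salt (140) and replicates 1 and 3 of normal light ck (138). The remaining pairs gave 14 to 51. A pair from a group of 3 libraries loses each locus that also reached 1 in the remaining library of its group. The combined treatment has no further library, so its number cannot be set against those of the pairs as like values.

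The described loci with the highest means in the 147 were a receptor-like kinase SD1-7 (g1535), with 16.3 and 8.13 units at low light with high salt and at most 0.064 in any other library, and the disease resistance protein RGA5 (g1435), with 13.7 and 7.74 units and 0 in the other 9. Next came an E3 ubiquitin ligase SINA-like 10 (g19242, 8.86 and 7.54 units), cytochrome P450 82A4 (g21333, 11.2 and 4.32), the resistance protein RPM1 (g8436, 9.23 and 4.95) and the receptor-like kinase PERK1 (g15070, 8.15 and 3.78). In the other 9 libraries the highest values of these 4 were 0.063 (g19242), 0.01 (g21333), 0.814 (g8436) and 0.26 units (g15070). The RPM1 locus g8436 was at 0 in only 2 of the 9, so not all of the 147 were absent elsewhere. All the loci named here were chosen for their values, and no test is given.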
